A study of Ovis aries and Mus musculus with 20 samples.

Results

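The ends of the mouse chromosomes in inguinal white adipose tissue (iWAT), the subcutaneous fat depot of the groin, were described from their A-B index, a signed score that places each 20-kb bin of a chromosome in the active or the inactive part of the nucleus. Each of the 19 autosomes gave 2 ends of 3 Mb in the GRCm39 assembly, so that 38 ends were examined. The telomere side was the last 3 Mb, and the centromere side was the stretch from 3 to 6 Mb, because the first 3 Mb of every assembled mouse autosome are a gap that stands for the unsequenced centromere. The rule took 5700 bins, of which 158 on the telomere side and 50 on the centromere side held at least 1 gap base and were left out. The remaining 5492 bins, 2692 on the telomere side and 2800 on the centromere side, were set against 114237 bins of the chromosome interiors, out of 119748 gap-free bins and 123133 bins in all.

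The measurements came from 2 in situ Hi-C libraries, each a pool of adult female Kunming mice aged 32 weeks, an outbred laboratory stock, sampled after a fast, and there was no other mouse group. The nuclei came from the upper, fat-cell layer of the cross-linked tissue. The rest of the 20 libraries of the series, 18 in number, came from sheep fat and were not used here. Because each library pooled animals, differences between single mice could not be seen, and the spread between the pools was the only error available. The number of contacts behind a bin was not given, so the depth of each bin was unknown.

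Hi-C joins and sequences pairs of DNA fragments that lie close together in the nucleus. Chromosomes separate into A compartments, which are open, gene-rich and transcribed, and B compartments, which are compact, gene-poor and often held at the nuclear edge, and within them topologically associating domains (TADs) are stretches whose fragments contact one another more than their neighbours. Mouse chromosomes are telocentric, with the centromere and its satellite DNA at the tip. The near end of a chromosome therefore lies beside heterochromatin of the centromere, and the far end beside a long tract of telomere repeats without a centromere. A positive A-B index means that a bin contacted A regions more than B regions, and a negative index the reverse. The authors set its sign and scale chromosome by chromosome, with the sign from gene density, so an end is best read against the rest of its own chromosome.

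Distances below were counted from the end of the assembled chromosome, terminal gap included, on the telomere side, and from 3 Mb on the centromere side. The mean index was high on the centromere side of chromosome 11 and low on that of chromosome 3. The following are the first 90 assembled bases of these 2 sides, read 5′ to 3′ on the plus strand of GRCm39 and printed in lower case. Both stretches lay in bins left out for gap bases, so they had no part in the means.
Centromere side, chr11:3050001-3050090: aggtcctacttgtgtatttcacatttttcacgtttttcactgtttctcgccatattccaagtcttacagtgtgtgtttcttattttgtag
Centromere side, chr3:3000001-3000090: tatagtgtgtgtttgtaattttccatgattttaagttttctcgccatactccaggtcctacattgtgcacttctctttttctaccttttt

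The ends of the same side differed widely from chromosome to chromosome. On the telomere side the mean index had a median over chromosomes of 1.33 in pool 1 and 0.998 in pool 2, with a range from -6.54 to 5.21 in pool 1 and from -5.93 to 4.46 in pool 2. On the centromere side the median was 0.0139 in pool 1 and -0.443 in pool 2, with a range from -3.92 to 6.67 in pool 1 and from -3.80 to 6.04 in pool 2. The interiors lay in a much narrower band, from -1.25 to 0.790 in pool 1 and from -1.30 to 0.761 in pool 2, as the average of a far longer stretch. Both pools gave a positive mean at 11 telomere sides and 9 centromere sides, and at 2 of 19 interiors. Both gave a negative mean at 8 telomere sides and 9 centromere sides, and at 16 interiors.

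**Figure D1:**
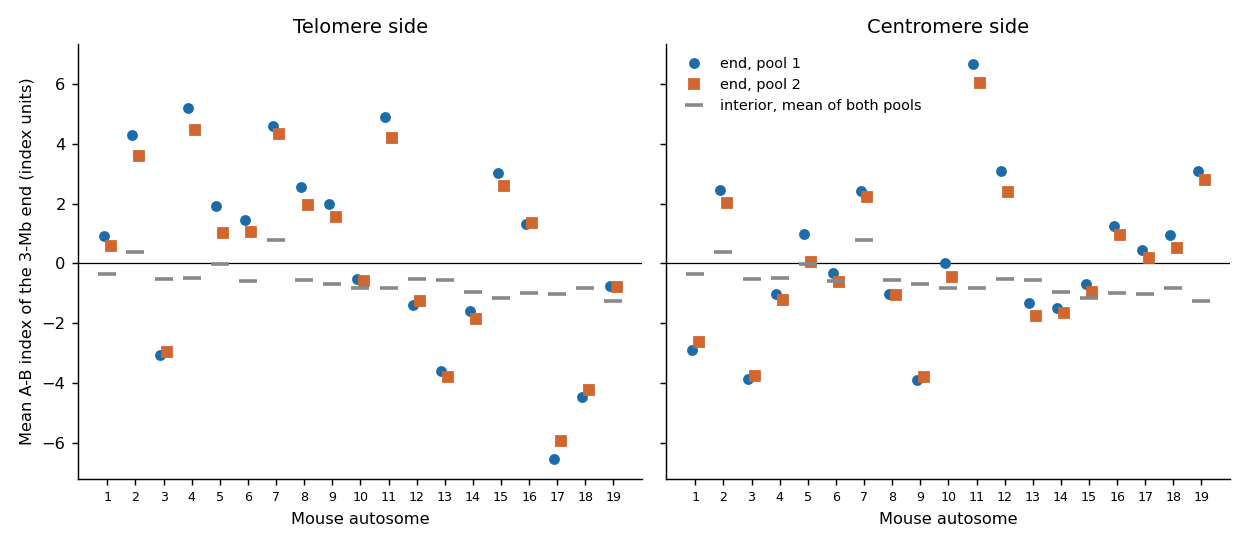
Mean A-B index of each 3-Mb end (y axis, index units) for the 19 autosomes (x axis), telomere side in the left panel and centromere side in the right, with circles for pool 1, squares for pool 2 and a grey dash for the mean of the chromosome interior. The ends spread from -6.54 to 6.67 while the interiors stay near 0. The distance between the 2 pools of an end is small beside that spread, but the centromere side of chromosome 5 has 0.976 in pool 1 and 0.0281 in pool 2.

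Chromosome 11 was in the A compartment at both tips. Its centromere side had the highest mean of the 38 ends, 6.67 in pool 1 and 6.04 in pool 2, and its telomere side had 4.89 and 4.19. On the centromere side 99.3% of bins were called A and none B, where a call means that the index differed from 0 at an adjusted p under 0.05 in limma's moderated test over all bins, and on the telomere side 95.8% were called A. Every bin of both ends that was called was therefore on the A side, and these ends carried 81 protein-coding genes on the telomere side and 63 on the centromere side.

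The telomere sides of chromosomes 4, 7 and 2 were the other ends with high means. Chromosome 4 had 5.21 in pool 1 and 4.46 in pool 2, chromosome 7 had 4.59 and 4.33, and chromosome 2 had 4.30 and 3.60. Chromosome 4 was the highest of the telomere sides in each pool, while chromosomes 11 and 7 changed places between the pools. On chromosome 7 the index stayed above 0 in both pools across the whole telomere window, while on chromosome 2 it was 7.17 and 5.89 in the outermost Mb, 6.54 and 5.88 in the next and -0.454 and -0.686 in the third.

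The telomere sides of chromosomes 17 and 18 were the lowest. Chromosome 17 had a mean of -6.54 in pool 1 and -5.93 in pool 2, with all of its 144 bins called B. Chromosome 18 had -4.46 and -4.23, with 91.7% of bins called B. The centromere sides of chromosomes 9 and 3 followed, with -3.92 and -3.80 on chromosome 9 and -3.87 and -3.78 on chromosome 3, and these ends overlapped with each other between the pools. The telomere side of chromosome 13 had -3.61 and -3.80. Chromosome 3 was in B at both ends, its telomere side having a mean of -3.07 and -2.97.

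Set against each other, the tips of a chromosome seldom had the same index. The difference between the telomere and the centromere side, taken within each pool and tested with limma over the 19 chromosomes with Benjamini-Hochberg adjustment, was above 0 on 10 chromosomes (52.6%), below 0 on 6 (31.6%) and not called on 3. Its median was 0.808, but it ran from -6.56 to 5.97, and the median of its size regardless of sign was 2.16. Both pools gave the same sign on every chromosome. A test on the 2 pools alone could not have gone below an exact two-sided p of 0.5, so the calls rest on the spread shared across chromosomes. The balance of signs depended on the averaging and on the width of the windows. With medians in place of means over the bins, 9 telomere sides were higher and 9 lower, with a median difference of -0.0649. With windows of 2 Mb, 7 telomere sides were higher and 9 lower, with a median difference of -0.0713, and with 5 Mb, 12 were higher and 5 lower, with a median of 2.14.

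The telomere side stood above the centromere side by the largest margins on chromosomes 4 and 9. On chromosome 4 the difference was 6.24 in pool 1 and 5.69 in pool 2, a mean of 5.97 ± 0.200 (limma's moderated SE, n = 2 pools, limma adjusted p = 0.000913). The moderated SE draws on the variance shared across the chromosomes and is not the SE of the 2 pools alone. On chromosome 9 it was 5.90 and 5.35, below chromosome 4 in each pool. Chromosomes 15, 1 and 8 followed, at 3.74 and 3.55, at 3.81 and 3.21, and at 3.59 and 3.00, with an order that differed between the pools. The remaining chromosomes with a higher telomere side, 7, 6, 2, 5 and 3, had mean differences from 0.808 to 2.15.

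The telomere side was lower by the largest margin on chromosome 17. There the difference was -7.00 in pool 1 and -6.12 in pool 2, a mean of -6.56 ± 0.286 (limma's moderated SE, n = 2 pools, limma adjusted p = 0.000989). Chromosome 18 had differences of -5.41 and -4.74, chromosome 12 of -4.48 and -3.63, and chromosome 19 of -3.85 and -3.57. Chromosomes 13 and 11 were called with smaller differences of -2.16 and -1.82 on average. Chromosomes 10, 14 and 16 were not called, with means of -0.347, -0.155 and 0.241. A p above the threshold does not show that their tips were alike, and on chromosome 10 the pools had -0.533 and -0.160. With windows of 2 Mb and of 5 Mb these chromosomes were called, with opposite signs. The differences were -4.33 and 1.18 on chromosome 10, -1.70 and 2.14 on chromosome 14, and -2.86 and 3.52 on chromosome 16. Windows of 5 Mb turned the difference of chromosome 11 to 0.824 and that of chromosome 2 to -0.111, and windows of 2 Mb turned those of chromosomes 5 and 8 to -0.624 and -0.0495. Other calls were lost with the direction kept. Windows of 2 Mb gave -0.0713 on chromosome 13 and 0.260 on chromosome 7, and windows of 5 Mb gave 0.0176 on chromosome 3.

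**Figure D2:**
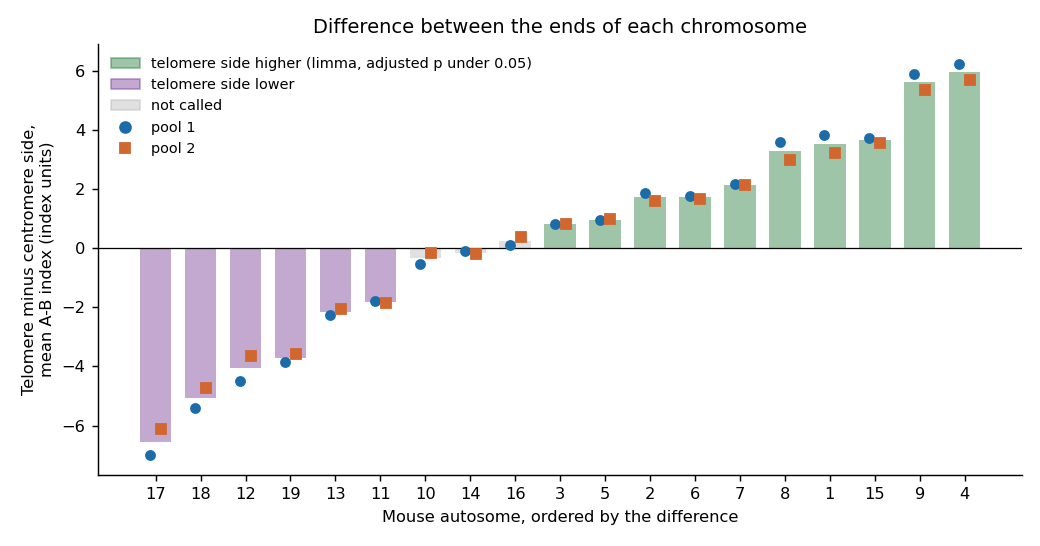
Telomere minus centromere side of the mean A-B index (y axis, index units) for each autosome in order of the difference (x axis), with bars for the mean of both pools, circles for pool 1 and squares for pool 2, and bar colour for the limma call. The 6 lower chromosomes reach -6.56 and the 10 higher ones 5.97, and the pools fall on the same side of 0 on every chromosome.

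By sign, 5 chromosomes had both tips in A in both pools and 3 had both in B. On 6 chromosomes the telomere side was in A and the centromere side in B, and on 4 the telomere side was in B and the centromere side in A. The index of the telomere side followed that of the centromere side weakly over the 19 chromosomes (Pearson r 0.267, Spearman rho 0.179), a description in which each pair of points shares its library and its chromosome's scale.

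Each end was next set against its own chromosome, as its mean minus the mean of the interior, among all 793 windows of 3 Mb. In this test 12 telomere sides and 11 centromere sides were higher than the interior, and 6 and 7 were lower, while 45.9% of all windows were called higher and 45.6% lower. The calls were thus many everywhere. The shares at the ends were 63.2% higher on the telomere side and 57.9% on the centromere side, of 19 windows each. The size of the departure regardless of sign had a median of 2.48 on the telomere side and 1.53 on the centromere side, against 2.12 over all windows. The difference from the interior had a median of 1.48 on the telomere side and 0.518 on the centromere side, against 0.0236 over all windows.

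The ends farthest above their chromosomes were the centromere side of chromosome 11, by 7.46 in pool 1 and 6.87 in pool 2, the telomere side of chromosome 4, by 5.60 and 5.03, and the telomere side of chromosome 11, by 5.68 and 5.02. The telomere side of chromosome 4 and the centromere side of chromosome 11 each ranked 1 among the windows of their chromosomes, 51 and 39 in number. The ends farthest below were the telomere sides of chromosome 17, at -5.56 and -4.86, and of chromosome 18, at -3.63 and -3.40. These ranked 29 of 30 and 28 of 29. The telomere side of chromosome 10 and the centromere side of chromosome 6 were not called, and on chromosome 6 the pools fell on opposite sides of 0, at 0.258 and -0.0235.

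Counted by bins, A was the more frequent call at the ends on the telomere side. There 1351 of 2692 bins (50.2%) were called A, on the centromere side 1159 of 2800 (41.4%), and over all gap-free bins 40.0%. Bins called B made up 38.3% on the telomere side and 41.9% on the centromere side, against 47.6% of all bins. With no test, by the sign in both pools, 53.8% of telomere-side bins and 47.3% of centromere-side bins were in A, against 44.4% of all bins, and 41.4% and 46.7% were in B, against 52.0%. Bins of one end are neighbours on one chromosome and are not replicates, so no test was made of these shares.

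The pools lay farther apart at the ends than in the interiors, a difference that was not tested. The mean absolute difference between the pools over the bins of an end was 0.731 on the telomere side and 0.681 on the centromere side, averaged over the 19 chromosomes, against 0.522 in the interiors. The sign differed between the pools in 4.75% of telomere-side bins, 6.0% of centromere-side bins and 3.53% of interior bins. The correlation between the pools over bins was 0.984, 0.982 and 0.988 for the telomere side, the centromere side and the interiors.

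Within an end the index changed with distance from the edge. In steps of 0.5 Mb, the outermost step had a median over the 19 chromosomes of -1.14 in pool 1 and -1.62 in pool 2 on the telomere side, and of -0.645 and -0.554 on the centromere side, and in both cases 8 of 19 chromosomes were positive in both pools. In the next step, from 0.5 to 1 Mb, the medians were 1.20 and 0.935 on the telomere side and 1.58 and 1.11 on the centromere side. On the telomere side the medians then fell below 0, to -0.283 and -1.52 from 1 to 1.5 Mb and to -0.256 and -0.0607 from 1.5 to 2 Mb. They reached 2.86 and 2.34 between 2 and 2.5 Mb from the edge, where 14 of 19 chromosomes were positive in both pools. On the centromere side the medians in the 3 steps from 1 to 2.5 Mb were 1.11, 0.604 and 0.373 in pool 1. In pool 2 they were 0.526, -0.0119 and 0.222. Between 2.5 and 3 Mb the centromere-side medians were -1.63 and -1.90. Beyond the windows the centromere side kept negative medians in both pools in every step from 3.5 to 12 Mb, while on the telomere side the medians of both pools were positive in every step from 2 to 9.5 Mb other than 5 to 5.5 Mb. The quartiles over chromosomes spanned 0 in most steps, so these medians describe no single chromosome.

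**Figure D3:**
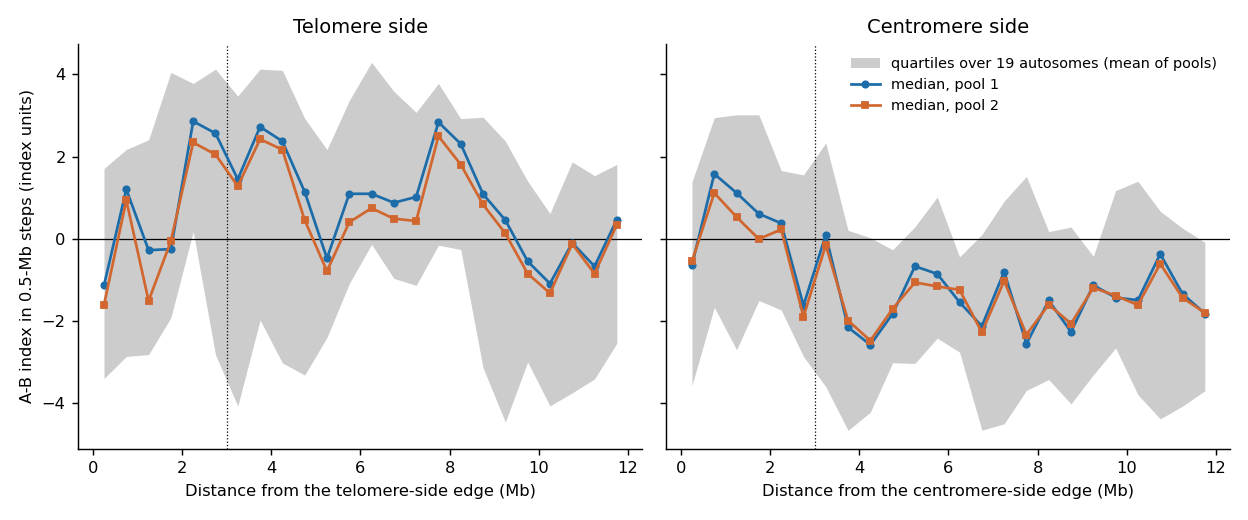
A-B index (y axis, index units) in 0.5-Mb steps of distance from the outer edge (x axis, Mb), telomere side on the left and centromere side on the right, with lines for the median over 19 autosomes in pool 1 and pool 2, grey for the quartiles of the mean of both pools, and a dotted line at 3 Mb. The outermost step is negative on both sides. The telomere-side medians run mostly above 0 from 2 to 9.5 Mb, and the centromere-side medians run mostly below 0 from 2.5 Mb inward.

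Some ends were uniform and others crossed from one compartment to the other. Over the bins with the same sign in both pools, no change of sign was found in 3 telomere sides, of chromosomes 7, 11 and 17, and in 2 centromere sides, of chromosomes 9 and 11. The median number of sign changes was 3 on the telomere side and 4 on the centromere side, and the highest was 13 on either side, at the telomere side of chromosome 19 and the centromere side of chromosome 14. The longest unbroken run of bins positive in both pools was 2.94 Mb, on the centromere side of chromosome 11, and the longest negative in both was 2.88 Mb, on the telomere side of chromosome 17.

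The telomere side of chromosome 10 crossed over in a single step. Its outermost Mb had a mean of -6.14 in pool 1 and -5.66 in pool 2, the next Mb -2.05 and -1.87, and the third 5.96 and 5.11. Its mean over the whole window, -0.519 and -0.603, was therefore the balance of an outer B stretch and an inner A stretch. At its centromere side, chromosome 16 had its middle Mb in A, at 6.64 and 5.96, beside 0.0322 and -0.153 in the outermost Mb and -3.04 and -3.00 in the third. Chromosome 8 went the opposite way to the telomere side of chromosome 10, with 2.49 and 1.96 in the outermost Mb of its centromere side and -5.40 and -4.81 in the third.

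**Figure D4:**
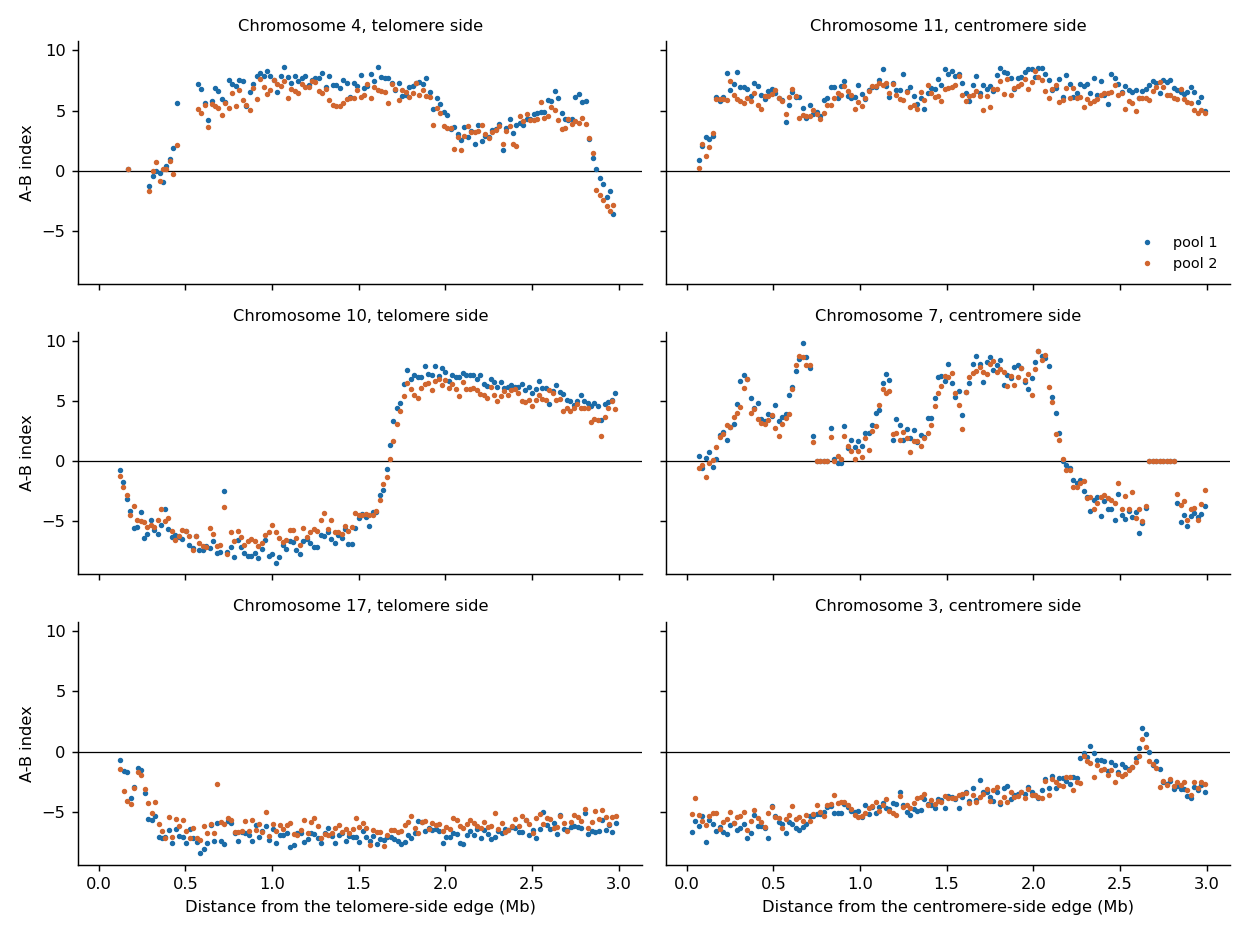
A-B index of single 20-kb bins (y axis, index units) against distance from the outer edge (x axis, Mb) at 3 telomere sides (left column) and 3 centromere sides (right column), in pool 1 and pool 2. Chromosome 17 stays below 0 throughout its telomere side and chromosome 11 above 0 throughout its centromere side, chromosome 10 crosses 0 once on its telomere side, and the run of points at 0 on chromosome 7 is a set of 12 filled bins.

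A few bins held values that looked filled in rather than measured. All but 1 in 3181 bins made wholly of gap bases had index values close to 0, from -0.362 to 0.487, that barely changed from bin to bin, and these had been left out. The same kind of value, within 0.5 of 0 and less than 0.01 from a neighbouring bin in both pools, stood in 5 kept bins of the telomere side, on chromosomes 4, 13 and 18, and in 12 of the centromere side, all on chromosome 7. Leaving them out changed no call on an end.

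The ends also differed in base composition and gene content. GC content ranged from 37.7% to 49.3% over the telomere sides and from 38.3% to 47.7% over the centromere sides, against 40.5% to 43.6% over the interiors. The 4 telomere sides with the highest index, on chromosomes 4, 11, 7 and 2, had 49.3%, 48.7%, 48.5% and 47.9% GC. The telomere sides of chromosomes 17 and 18, at the bottom of the order, both had 37.7%. Over the 38 ends the index went with GC content (Pearson r 0.924, Spearman rho 0.942), with r of 0.952 over the 19 telomere sides and 0.898 over the 19 centromere sides. It went less closely with the number of protein-coding genes per Mb, with r of 0.521 and 0.647 and Spearman rho of 0.677 and 0.769. The difference in index between the tips had the same sign as their difference in GC content on 17 of 19 chromosomes (r 0.915), the exceptions being chromosomes 11 and 16. These are descriptions: the ends share 2 libraries, the points have no replicates of their own, the authors set the sign of the index from gene density, and the part of base composition in mapping or in the index was not tested.

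**Figure D5:**
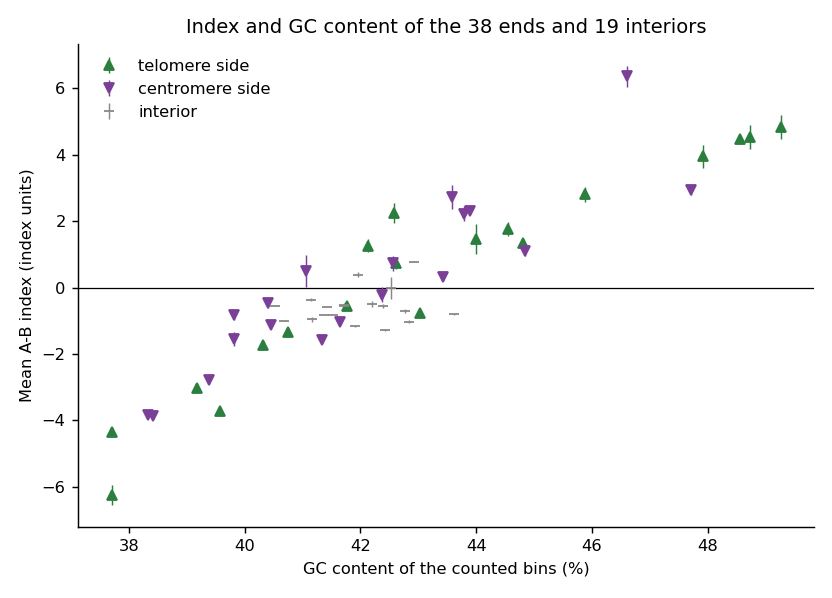
Mean A-B index (y axis, index units, mean of both pools with bars to each pool) against the GC content of the counted bins (x axis, %) for 19 telomere sides, 19 centromere sides and 19 interiors. The ends run from 37.7% GC and -6.24 to 49.3% GC and 4.83 on the telomere side, and the centromere side of chromosome 11, at 46.6% GC, lies highest at 6.36.

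The end windows held 4.59% of gap-free bins and 6.17% of the 20592 protein-coding genes whose start site lay in such a bin. There were 710 genes on the telomere side (13.2 per Mb), 569 on the centromere side (10.2 per Mb) and 8.47 per Mb in the interiors. These densities are sums over all chromosomes. The median over chromosomes was 9.03 per Mb on the telomere side, 6.46 on the centromere side and 7.60 in the interiors. By the median, the centromere side was thus below the interiors. The counts were uneven, from 2 on chromosome 17 to 130 on chromosome 10 on the telomere side, and from 4 on chromosome 3 to 119 on chromosome 19 on the centromere side. By the bin of their start site, 544 of 702 telomere-side genes in gap-free bins (77.5%) and 460 of 568 centromere-side genes (81.0%) were called A, against 72.2% of all genes. Those called B were 119 (17%) and 64 (11.3%), against 18.8% of all genes.

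The genes nearest to the edges lay in either compartment. Of the 19 outermost telomere-side genes, whose start sites lay 0.105 to 0.295 Mb from the end of the assembly, 6 were called A, 6 B and 7 neither. Of the 19 outermost centromere-side genes, 0.115 to 0.742 Mb from the edge, 10 were called A, 7 B and 2 neither. Of all protein-coding genes in gap-free bins, 72.2% were called A and 18.8% B. Neither the difference between the sides nor that from all genes was tested.

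Among the outermost telomere-side genes, Mrgprd, a receptor of pain-sensing neurons, had the highest index, 7.18 in pool 1 and 7.26 in pool 2, at chr7:144868572-144877823. Csf2ra, the alpha chain of the GM-CSF receptor, had 2.68 and 1.66 on chromosome 19, and Wls, which carries Wnt proteins to the cell surface, had 2.48 and 1.70 on chromosome 3. Wls was thus in an A bin at the tip of an end whose mean was in B. The lowest were Vmn2r87, a vomeronasal receptor, at -5.54 and -3.68 on chromosome 10, and Fgf14, a modulator of sodium channels, at -4.28 and -4.47 on chromosome 14. Cr2, a complement receptor of B cells, was not called on chromosome 1, with 1.12 in pool 1 and -0.0532 in pool 2, nor was Rfc3, a clamp loader of DNA replication, on chromosome 5, with 1.05 and -0.262.

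Among the outermost centromere-side genes, Insr, the insulin receptor, had the highest index, 5.59 in pool 1 and 4.37 in pool 2, at chr8:3172061-3329647. Rab10, a small GTPase of vesicle traffic, had 4.99 and 3.74 on chromosome 12, Scaf8 had 4.53 and 3.01 on chromosome 17, and Selenop, the selenium carrier of plasma, had 3.60 and 2.68 on chromosome 15. The lowest was Hnf4g, a nuclear receptor of gut epithelium, at -6.73 and -5.63 on chromosome 3, followed by the olfactory receptor Or1f19 at -5.99 and -5.05 on chromosome 16. Xkr4 was in B on chromosome 1, at -3.71 and -3.15.

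The genes with the highest index on the telomere side all lay together near the tip of chromosome 2. Dnajc5, a chaperone of synaptic vesicles, had 10.4 in pool 1 and 7.43 in pool 2 at its start site, 0.593 Mb from the edge, and Zbtb46, a transcription factor of dendritic cells, had 9.49 and 7.84. Prpf6, a splicing factor, Uckl1 and Zfp512b started in the same bin, which had 8.67 and 8.50. The highest on the centromere side lay on chromosome 7. Leng1 had 9.83 and 8.62, Ccdc106 and Zfp865 shared a bin at 9.17 and 9.13, U2af2, a splicing factor, had 8.56 and 8.80, and Cnot3, a subunit of the main deadenylase complex, had 8.51 and 8.71.

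The 5 telomere-side genes with the lowest index were olfactory receptors of chromosome 10, Or6c219, Or6c76, Or6c65, Or6c33 and Or6c66b. Their bins ranged from -8.05 to -7.57 in pool 1 and from -7.67 to -6.97 in pool 2. On the centromere side the lowest after Hnf4g were Oprk1, the kappa opioid receptor, at -6.38 and -5.42 on chromosome 1, Or1f19 on chromosome 16, Slc10a2, the bile acid transporter of the ileum, at -5.56 and -5.04 on chromosome 8, and the vomeronasal receptor Vmn1r64 at -5.40 and -4.85 on chromosome 7.

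Olfactory receptors, which are expressed in the nose one per neuron, made up a large share of the genes on the telomere side of chromosome 10. The telomere sides held 61, all on chromosome 10, of which 59 were called B and 1 A, with a median of -6.35 as the mean of both pools, -6.79 in pool 1 and -5.84 in pool 2. Over all autosomes 1052 of the 1187 olfactory receptor genes were called B and 77 A, with a median of -4.62. The nearest to the edge were Or9k7, at -6.47 and -5.71, Or9k2b, at -5.84 and -5.78, and Or9k2, at -6.95 and -6.24. The centromere sides held 2, both on chromosome 16, Or1f19 in B and Or2c1 in A at 3.42 and 2.39. On chromosome 10 as a whole, 66 telomere-side genes were called B and 63 A, so that the genes split as the index of the window did.

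Vomeronasal receptors, the pheromone receptors, were also found at several ends. The 6 on the telomere side, on chromosomes 4, 5 and 10, gave 5 in B and 1 without a call, and the 15 on the centromere side, on chromosomes 4, 6, 7 and 18, gave 9 in B, 1 in A and 5 without a call. Over all autosomes 268 of 350 were called B and 4 A. The 4 on the telomere side of chromosome 10 lay nearer to the edge than its olfactory receptors and ranged from -5.70 to -4.56 as the mean of both pools. On the centromere side of chromosome 7 the 11 ranged from -5.13 to 2.02, with Vmn1r55 in A at 2.30 and 1.73. No defensin gene lay at an end.

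Zinc finger genes, which encode DNA-binding proteins, and ribosomal protein genes were nearly all called A at the ends. Zinc finger genes numbered 10 on the telomere side, 9 of them in A and none in B, and 12 on the centromere side, all in A, against 276 of 409 over all autosomes. The 6 on the centromere side of chromosome 7 ranged from 6.18 to 9.15. Cytosolic ribosomal proteins numbered 4 on the telomere side and 5 on the centromere side, all in A, against 77 of 81. Most genes at the ends were in A, 77.5% on the telomere side and 81.0% on the centromere side, and 72.2% of all genes, so these counts set neither list apart. Rps21 on chromosome 2 had 8.49 in pool 1 and 6.93 in pool 2, Rpl41 and Rps26 on chromosome 10 had 7.19 and 6.01 and 6.97 and 5.96, and Rps9 on chromosome 7 had 7.74 and 8.00. Rpl41 and Rps26 lay 2.14 and 2.07 Mb from the same edge as the olfactory receptors.

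Of 63 genes of fat cell function, 5 lay at an end (7.94%, against 6.17% of all protein-coding genes), all in A, as were 58 of the 63 and 72.2% of all genes. On the telomere side, Fasn, the fatty acid synthase, had 5.66 in pool 1 and 4.68 in pool 2 on chromosome 11, Abhd5, the coactivator of the fat cell triglyceride lipase, had 3.25 and 2.84 on chromosome 9, and Prdm16, a regulator of brown and beige fat cells, had 2.79 and 3.73 on chromosome 4. On the centromere side, Insr and Retn, which encodes the fat hormone resistin, lay together on chromosome 8, Retn at 4.72 and 3.93. A single gene of telomere maintenance lay at an end, Rtel1, a helicase that unwinds telomere loops, in A at 9.04 and 7.78 on the telomere side of chromosome 2, 0.789 Mb from the edge. Of the 19 such genes on the autosomes, 17 were in A.

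No mouse RNA was used, so the tissue could be checked only by the index at the start sites of marker genes. All 7 fat cell markers were in A, Adipoq at 2.71 and 2.74 and Plin1 at 7.05 and 6.57, but so were 3 of 5 blood cell markers, 3 of 3 endothelial and 3 of 4 stromal ones, 2 of 3 of muscle and 3 of 4 of epithelium. The index at these genes therefore does not set fat cells apart from the other cells of the depot. Krt8 and Krt5, 2 of the epithelial markers, lay on the telomere side of chromosome 15, at 4.72 and 5.20 and at 2.38 and 1.82.

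The ends with the fewest genes on each side had means in B. The telomere side of chromosome 17 held Mettl4, a methyltransferase, at chr17:95030018-95057487 with -1.55 in pool 1 and -1.99 in pool 2, and Adcyap1, which encodes the neuropeptide PACAP, with -6.90 and -5.86. The centromere side of chromosome 3 held 4 genes, of which Hnf4g and Gm8797 were in B, while Zfhx4, a transcription factor, and Pex2, a peroxisome assembly factor, were not called, Pex2 with 1.42 and 0.363.

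TADs were listed once, from the merged pools, so no error could be given for them. By midpoint, 53 lay on the telomere side and 50 on the centromere side, of 2979 on the autosomes. Their median length was 520 kb on the telomere side and 590 kb on the centromere side, against 540 kb over all. The list holds stretches between called boundaries: 98.4% of neighbouring TADs lay 20 kb apart and the largest spacing was 120 kb, so the sequence outside the outermost boundary of a chromosome belongs to no TAD by construction. Accordingly TADs covered 59.7% of the telomere side and 65.7% of the centromere side, against 97.3% of the interiors.

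The distance from the edge to the outermost TAD had a median of 0.929 Mb on the telomere side and 0.860 Mb on the centromere side, and was over 1 Mb at 9 telomere sides and 8 centromere sides. It was longest on the telomere side of chromosome 17, at 4.41 Mb, and on the centromere side of chromosome 3, at 4.34 Mb, the ends with no TAD in the window at all. These uncovered stretches were in B: on chromosome 17 the 4.30 Mb of bins outside the outermost TAD had a mean of -5.96 in pool 1 and -5.39 in pool 2, with 100% negative in both pools, and on chromosome 3 the 4.32 Mb had -3.87 and -3.74, with 98.1%. An uncovered stretch was not always in B. On the telomere side of chromosome 2, 2.14 Mb outside the outermost TAD had a mean of 6.69 and 5.75, with no bin negative in both pools. On the telomere side of chromosome 10, 1.58 Mb had -5.98 and -5.38, with 98.7% negative in both.

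Of the TADs themselves, 40 of 53 on the telomere side and 30 of 50 on the centromere side had a positive mean index in both pools. The telomere-side TAD at chr13:119720001-119980000 held no gap-free bin and so had no mean. On the centromere side the positive TADs had a median length of 490 kb and the 16 negative ones 770 kb. On the telomere side the medians were 530 kb and, for 11 negative TADs, 560 kb. Neither the share of positive TADs nor the lengths by sign were computed over all TADs, so these values do not set the ends apart. The telomere side of chromosome 9 had 6 TADs, more than any of the other ends, from 260 to 640 kb long, and all were positive in both pools. The index of an end went with the share of it in TADs only weakly over the 38 ends (Pearson r 0.411, Spearman rho 0.312), again as a description of ends that share 2 libraries.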

How the data were processed

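In situ Hi-C was performed by the authors on 2 pools of mouse inguinal fat. Reads were aligned to GRCm39 and processed with Juicer, as the submitters' processing notes and the methods state. The A-B index deposited by the authors is a score per 20-kb bin and pool, derived from observed over expected contacts with A minus those with B regions, after compartments had been assigned by a principal component per chromosome. TAD positions, deposited as start and end coordinates, came from insulation scores on merged, balanced maps. Mapping and balancing can weaken values in repeats and beside gaps. Here, bins with any gap base were left out, window means were taken per pool, and limma 3.58.1 in R 4.3.3 tested differences from 0 with 1 residual degree of freedom (prior 1.80 for chromosomes, unlimited for windows, so that all windows shared one variance), with Benjamini-Hochberg adjustment at 0.05 over 19 chromosomes, 793 windows or 119748 bins. The tests were also run on simulated independent values with a common spread. Neighbouring bins are not independent, so the simulation does not bear on the calls. Genes came from GENCODE M39, placed by start site. The genes named were the outermost per end, the 5 highest and 5 lowest per side, and members of preset lists (up to 4 of each, nearest to the edge, with others chosen after their values were seen). The members and lists were chosen with earlier results of these data known. The genome sequence was not masked, so no share of repeats was computed. Alternatives covered window width, edge, averaging, gaps, scaling and each pool alone. Some sequences at the edges are not reported here.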

Additional observations from a re-analysis of the deposited data

How the results depend on the processing

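Direction and call were kept for every chromosome difference and every end against its interior when the pools were quantile normalized, when the gap rule was relaxed to under 50% of a bin, and when filled bins were left out (chosen after seeing the data), other than 1 end that gained a call with quantile normalization. Windows of 5 Mb gave 7 centromere sides higher than the interior. The median difference between the tips was -0.0713 with windows of 2 Mb, 2.14 with 5 Mb, 0.766 with the last 3 Mb counted from the last measured bin, -0.0649 with medians over bins, 0.829 with the relaxed gap rule and 0.253 with the index scaled per chromosome, where the unit itself changes. Counting all annotated genes gave 2077 on the telomere side and 1886 on the centromere side. The telomere minus centromere difference turned with 2-Mb windows on chromosomes 5 (-0.624), 8 (-0.0495) and 16 (-2.86), with 5-Mb windows on chromosomes 2 (-0.111), 10 (1.18), 11 (0.824) and 14 (2.14), with medians over bins on chromosomes 3 (-0.0649) and 16 (-1.09), and on chromosome 14 (0.0872) with the edge at the last measured bin. Against the interior, 2-Mb windows turned the telomere side of chromosome 10 (-3.03) and the centromere sides of chromosomes 15 (-0.299), 17 (-0.148), 6 (-0.222) and 8 (1.59). Windows of 5 Mb turned the telomere side of chromosome 14 (1.05) and the centromere sides of chromosomes 10 (-0.0849), 16 (-0.560) and 5 (-1.50). The interior median turned the telomere side of chromosome 10 (-0.171). With one pool at a time, the centromere side of chromosome 6 ranged from -0.0235 to 0.258, and no other end turned. Apart from leaving out a pool, 416 of these single values kept direction and call, 20 turned, 11 gained a call and 9 lost it. The widths change which bins enter, and for the others the cause was not tested. No paired analysis was possible because the mouse libraries form 1 group, and the difference between the tips was already taken within a pool.

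With 2 pools, 1 residual degree of freedom and unknown contact depth, the calls rest on pooled variances, and technical spread cannot be told apart from differences between mice. The precision of values close to a gap is unknown, because the contacts behind each bin were not given.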

Other observations

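CpG density followed the order of the ends as GC content did. It ranged from 4.57 to 14.7 per kb over the telomere sides and from 5.54 to 13.4 per kb over the centromere sides. The interiors, each the average of a far longer stretch, ranged from 7.70 to 9.64 per kb. CpG density went with the index with r of 0.840 and 0.881 over 19 ends each. This describes ends that share 2 libraries and a measure bound up with GC content.

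Among the 3-Mb windows of the same chromosome, both tips of chromosome 11 were near the top and the telomere sides of chromosomes 17 and 18 near the bottom. Both tips of chromosome 11 led its 39 windows, the telomere side at rank 2 and the centromere side at rank 1. The telomere side of chromosome 17 ranked 29 of 30 while its centromere side ranked 10, and on chromosome 18 the ranks were 28 and 10 of 29.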
